A study of Homo sapiens with 10 samples.

Results

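The unfolded protein response and the integrated stress response were followed in irradiated renal proximal tubular epithelial cells through 40 named genes of known roles, picked when earlier results of these data were at hand. All 40 matched a row of the count matrix by Ensembl identifier, out of 61587 identifiers, and 39 reached the 200 counts over all samples that a gene needed to be tested, as did 19006 genes in total. The cells were RPTEC/TERT1, a human proximal tubular epithelial line immortalised with telomerase, grown in six-well plates. One group of 5 samples received 10 Gy of gamma irradiation from a caesium source. The other group of 5 held mock-irradiated controls, which made the same trip but received 0 Gy. RNA was collected on day 7 in both, and polyA-enriched libraries were sequenced. The study irradiated these cells to induce senescence, so the comparison asks how far the machinery of protein folding and translational stress differed at that point. Samples carry the replicate numbers 1 to 5 in each group. Nothing in the labels says that these were separate cultures, so p-values measure the spread between these samples, which may be technical. Summed counts lay between 78081911 and 131555873 in control samples and between 66269311 and 101594948 in irradiated samples.

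The endoplasmic reticulum (ER) folds secreted and membrane proteins with the help of chaperones, and unfolded protein there is sensed by the membrane proteins IRE1, PERK and ATF6. IRE1 splices XBP1 mRNA and ATF6 is cut to a transcription factor, and both raise chaperones and the genes of ER-associated degradation. PERK is also one of the kinases that phosphorylate the translation factor eIF2, which lowers protein synthesis while favouring translation of ATF4, the transcription factor of the integrated stress response, whose targets serve amino acid supply, tRNA charging and, under lasting stress, cell death.

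Short DNA elements mark the promoters of some of these genes, and the stretches that hold them are shown because the chaperone and ATF4 branches are compared throughout. The ER stress element is CCAAT and CCACG with 9 bases between them, a second form (ERSE-II) is ATTGG and CCACG with 1 base between them, the core of the unfolded protein response element is TGACGTGG, and the amino acid response element bound by ATF4 and its partners is TGATGNAA. All were searched on both strands of the 250 bases before the start listed for each gene in RefSeq on GRCh38.p14, where 38 of the 40 genes had an entry. The ER stress element in either form stood in 9 of these 38 promoters and in 7 of 14 chaperone promoters, and in 0.132% of all 27305 promoters. HSPA5, HSP90B1, CALR, CANX, CRELD2 and XBP1 held the first form, and HYOU1, SDF2L1 and HERPUD1 the second. The amino acid response element stood in 4 of 38 (ASNS, CHAC1, AARS1 and HERPUD1; 10.5%), against 3.19% of all promoters, and the core of the unfolded protein response element in 1 (HYOU1), against 0.667%. The genes were picked for known roles in these responses, so the shares are descriptive and were not tested against those of all promoters. A match is a stretch of letters and was not tested as a binding site. In the stretches below, written 5′ to 3′ on the strand of the gene in GRCh38, capitals mark the element.
HSPA5, minus strand, chr9:125241384-125241424: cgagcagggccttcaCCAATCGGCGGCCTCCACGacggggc
CALR, plus strand, chr19:12938369-12938417: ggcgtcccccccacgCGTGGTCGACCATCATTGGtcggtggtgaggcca
XBP1, minus strand, chr22:28800603-28800636: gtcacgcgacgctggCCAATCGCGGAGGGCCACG
SDF2L1, plus strand, chr22:21642099-21642139: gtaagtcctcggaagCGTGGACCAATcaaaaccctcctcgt
HYOU1, minus strand, chr11:119057365-119057405: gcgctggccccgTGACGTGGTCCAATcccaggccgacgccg
HERPUD1, plus strand, chr16:56931951-56932050: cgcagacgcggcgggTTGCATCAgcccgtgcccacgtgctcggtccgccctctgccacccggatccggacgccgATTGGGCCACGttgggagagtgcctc
AARS1, minus strand, chr16:70289675-70289704: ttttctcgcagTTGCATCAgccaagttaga
CHAC1, plus strand, chr15:40953251-40953280: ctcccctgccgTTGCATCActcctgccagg
ASNS, minus strand, chr7:97872458-97872487: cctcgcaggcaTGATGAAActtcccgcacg

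HSPA5 and XBP1 carry the first form on the strand of the gene, and CALR carries it on the other strand. In HYOU1 the core of the unfolded protein response element overlaps ERSE-II, so that the capitals show both together. HERPUD1 holds an amino acid response element upstream of an ERSE-II, the only member with elements of both branches in this window. The first 6 stretches lie outside every gene of the GENCODE annotation, release 44, whereas those of CHAC1 and ASNS lie in an annotated exon of the gene and that of AARS1 in exons of both AARS1 and DDX19B, on opposite strands.

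Irradiation changed 17 of the 39 genes tested by edgeR's quasi-likelihood test, at a threshold of 0.05 on the adjusted p (43.6%), which is near the share among all genes (46.6%). Of these, 10 were higher (25.6%), against 23.9% of all genes, and 7 were lower (17.9%), against 22.7%. All 5 irradiated samples lay apart from all 5 control samples for 10 genes (25.6%), against 26.7% of all genes. The changes were small, since 34 of 39 fitted log2 fold changes lay between -0.5 and 0.5, and the median was 0.11 where that of all genes was -0.01. ATF5 and STC2 were the 2 genes that rose more than 2-fold, and 0 fell by as much. Levels are given below in CPM, counts scaled to library size with TMM factors, and changes as fitted log2 fold changes (log2FC) of irradiated against control samples with their standard errors (SE), with replicate number as a block in the edgeR fit and p-values adjusted over all genes. In bulk RNA, fewer cells of a type and less RNA per cell cannot be told apart.

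**Figure D1:**
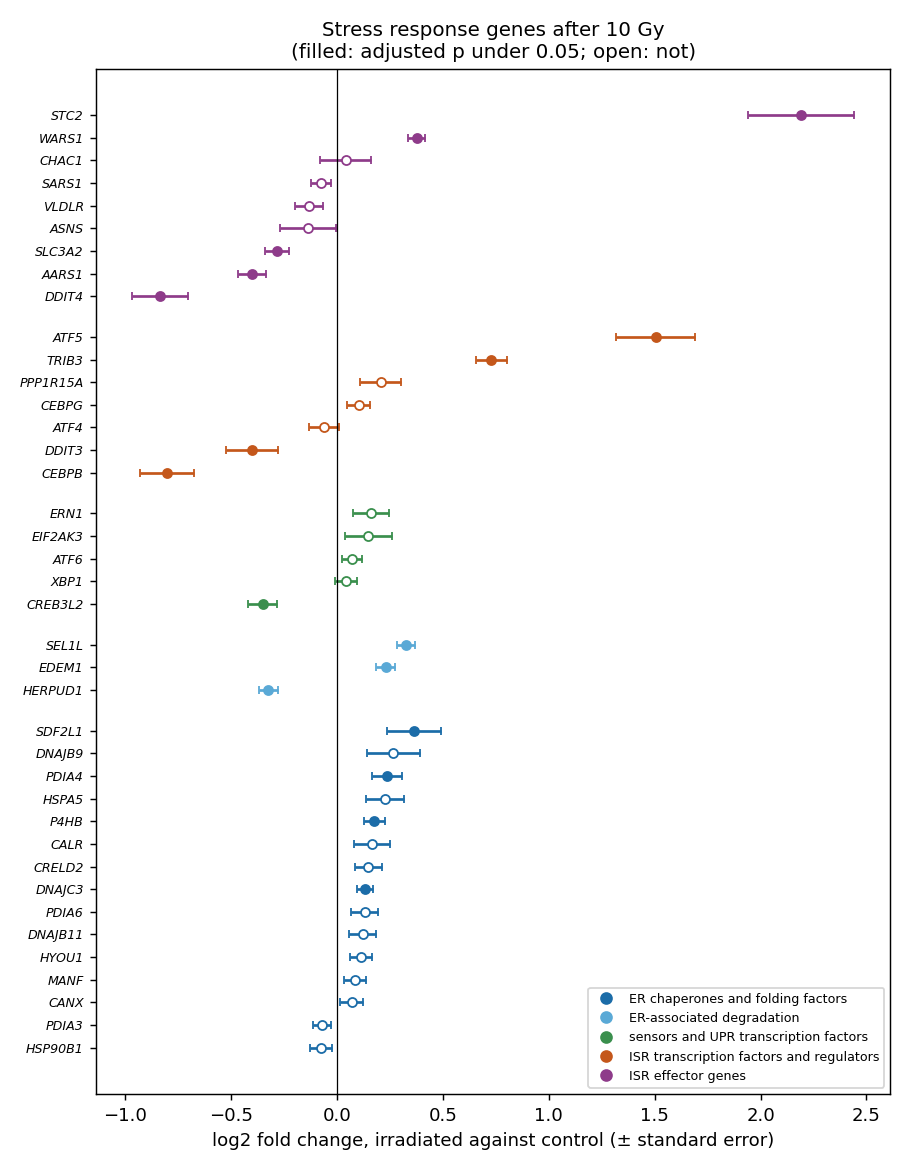
Fitted log2FC of irradiated against control samples (horizontal axis) for each of the 39 genes tested, coloured by role, with bars for the standard error. Filled points passed an adjusted p of 0.05. STC2 at 2.19 and ATF5 at 1.51 lie far to the right, DDIT4 at -0.83 and CEBPB at -0.80 farthest to the left, and the 15 ER chaperones between -0.08 and 0.36.

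The ER chaperones and folding factors were abundant and changed little. Their range of log2 fold changes was -0.08 to 0.36 with a median of 0.13, 4 of 15 were higher (26.7%, against 23.9% of all genes), 0 were lower (against 22.7%), and for 0 of 15 did the groups separate (against 26.7%). Those higher were P4HB, PDIA4, DNAJC3 and SDF2L1, each in all 5 pairs. These calls were close to the threshold, and without the replicate block 0 of 15 were called, where 36.9% of all genes were. With library size as the only scaling 0 were called higher and 2 lower, HSP90B1 (-0.15, adjusted p = 0.0332 in edgeR) and PDIA3 (-0.15, 0.0186), while the share of changed genes that rose fell from 51.4% to 38.0% over all genes.

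HSPA5, on chromosome 9 from 125234853 to 125241382, encodes BiP, the ER chaperone of the HSP70 family that also holds the stress sensors inactive. It stood at 723, 879, 493, 856 and 893 CPM in control replicates 1 to 5 and at 817, 914, 776, 961 and 946 CPM in the irradiated ones. The irradiated sample was higher in every pair, but the difference was 0.65 on the log2 scale in pair 3 and between 0.06 and 0.18 in the others, and the groups overlapped. The log2FC was 0.23 (SE 0.09, adjusted p = 0.0736 in edgeR), and it was 0.13 (adjusted p = 0.0685) with pair 3 left out. DESeq2 called HSPA5 higher (0.22, adjusted p = 0.0473), beside the 4 chaperones called in edgeR. CALR, the most abundant of the 40 genes per kilobase of exon (375 CPM per kb in control samples), encodes calreticulin, a calcium-binding chaperone of glycoproteins. Its control samples stood at 978, 1123, 743, 1172 and 1231 CPM and its irradiated samples at 1089, 1129, 1072, 1292 and 1224 CPM. The lowest value was again control replicate 3, and the log2FC was 0.16 (SE 0.08, adjusted p = 0.148 in edgeR), or 0.08 (adjusted p = 0.272) with pair 3 left out.

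SDF2L1, a component of the ER chaperone complex around BiP, had the largest fitted change of the group. It was measured at 23.8, 28.1, 15.8, 28.9 and 28.1 CPM in control and at 31.6, 28.3, 31.3, 34.2 and 31.8 CPM in irradiated samples. The groups overlapped at irradiated replicate 2, pair 2 differed by 0.01 and pair 3 by 0.98 on the log2 scale, and the log2FC was 0.36 (SE 0.13, adjusted p = 0.0484 in edgeR). It was 0.22 (adjusted p = 0.0361) with pair 3 left out, and the call was lost without pair 1 (adjusted p = 0.124), 4 (0.0871) or 5 (0.0747). PDIA4 and P4HB are protein disulphide isomerases, which form and rearrange disulphide bonds. PDIA4 averaged 305 ± 47.8 CPM in control and 356 ± 21.6 CPM in irradiated samples (SD, n = 5 each), a log2FC of 0.23 (SE 0.07, adjusted p = 0.029 in edgeR). With pair 3 left out it was 0.17 and still called (adjusted p = 0.0392), and the call was lost without pair 1 (adjusted p = 0.0934) or 4 (0.0687). P4HB rose from 510.4 ± 27.8 to 577 ± 32.9 CPM, a log2FC of 0.18 (0.05, adjusted p = 0.0235), with pair differences of 0.31, 0.08, 0.18, 0.20 and 0.11. Its call was lost without pair 1 (adjusted p = 0.0757 in edgeR) or 4 (0.0821). DNAJC3, the ER co-chaperone that also restrains PERK, rose from 129.9 ± 7.26 to 142 ± 9.17 CPM, a log2FC of 0.13 (0.04, adjusted p = 0.0271). It was 0.15 and still called (adjusted p = 0.0132) with pair 3 left out, and the call was lost without pair 1, 4 or 5 (adjusted p between 0.0628 and 0.108).

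The rest of the folding group did not pass the test. These were the chaperones HSP90B1 (log2FC -0.08), CANX (0.07) and HYOU1 (0.11), the isomerases PDIA3 (-0.07) and PDIA6 (0.13), the co-chaperones DNAJB9 (0.27) and DNAJB11 (0.12), and MANF (0.09) and CRELD2 (0.15), both secreted or retained factors induced by ER stress. Among them DNAJB9, a co-chaperone of BiP that is induced through IRE1, differed most between libraries. Its control samples stood at 14.8, 16.3, 27.5, 14.7 and 16.4 CPM and its irradiated samples at 19.96, 21.3, 21.2, 20.8 and 21.3 CPM. All irradiated samples were above 4 of the controls and below control replicate 3, and without replicate 3 DNAJB9 was called higher (log2FC 0.43, adjusted p = 0.000663 in edgeR).

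ER-associated degradation returns misfolded protein to the cytosol, and its 3 genes changed in different directions with no overlap between the groups, where 46.6% of all genes were called and 26.7% did not overlap. SEL1L is the adaptor of the HRD1 ubiquitin ligase complex. It was measured at 108, 124, 105, 122 and 126 CPM in control and at 141, 144, 135, 153 and 158 CPM in irradiated samples, so the lowest irradiated sample exceeded the highest control. The log2FC was 0.32 (SE 0.04, adjusted p = 0.000635 in edgeR). EDEM1, which delivers mannose-trimmed glycoproteins for degradation, rose from 57.9 ± 4.22 to 67.9 ± 3.92 CPM (SD, n = 5 each; log2FC 0.23, SE 0.05, adjusted p = 0.00513 in edgeR). HERPUD1, a membrane protein of the same complex, stood at 185, 163, 169, 182 and 197 CPM in control and at 149, 139, 135, 146 and 147 CPM in irradiated samples. All irradiated samples were lower than all controls, and the log2FC was -0.32 (SE 0.04, adjusted p = 0.000738 in edgeR). SEL1L and EDEM1 rose and HERPUD1 fell in all 5 pairs and under every alternative tried.

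Sensors and transcription factors of the unfolded protein response gave 1 call among 5 genes (20%, against 46.6% of all genes). CREB3L2, an ER-resident transcription factor that is released by proteolysis as ATF6 is, stood at 145, 154, 184, 158 and 157 CPM in control and at 132, 115, 119, 128 and 129 CPM in irradiated samples. The groups did not overlap, and CREB3L2 fell by 0.35 on the log2 scale (SE 0.07, adjusted p = 0.00446 in edgeR). EIF2AK3 encodes PERK, and ERN1 encodes IRE1. EIF2AK3 was measured at 19.3, 22.2, 35.8, 20.7 and 21.2 CPM in control and at 24.6, 25.4, 26.9, 25.8 and 25.8 CPM in irradiated samples. ERN1 was measured at 16.5, 16.6, 20.3, 14.6 and 15.3 CPM in control and at 19.0, 18.1, 17.7, 18.3 and 19.5 CPM in irradiated samples. For both genes, every irradiated sample lay above 4 of the controls and below control replicate 3. The log2 fold changes were 0.15 (adjusted p = 0.31) for EIF2AK3 and 0.16 (adjusted p = 0.157) for ERN1 in edgeR with all samples, and 0.29 (adjusted p = 0.00279) and 0.26 (adjusted p = 0.0127) without replicate 3. ATF6 (0.07) and XBP1 (0.04) did not pass the test in edgeR, and both values were below 0 with library size as the only scaling (-0.0059 and -0.035). Gene counts do not separate spliced from unspliced XBP1 mRNA.

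**Figure D2:**
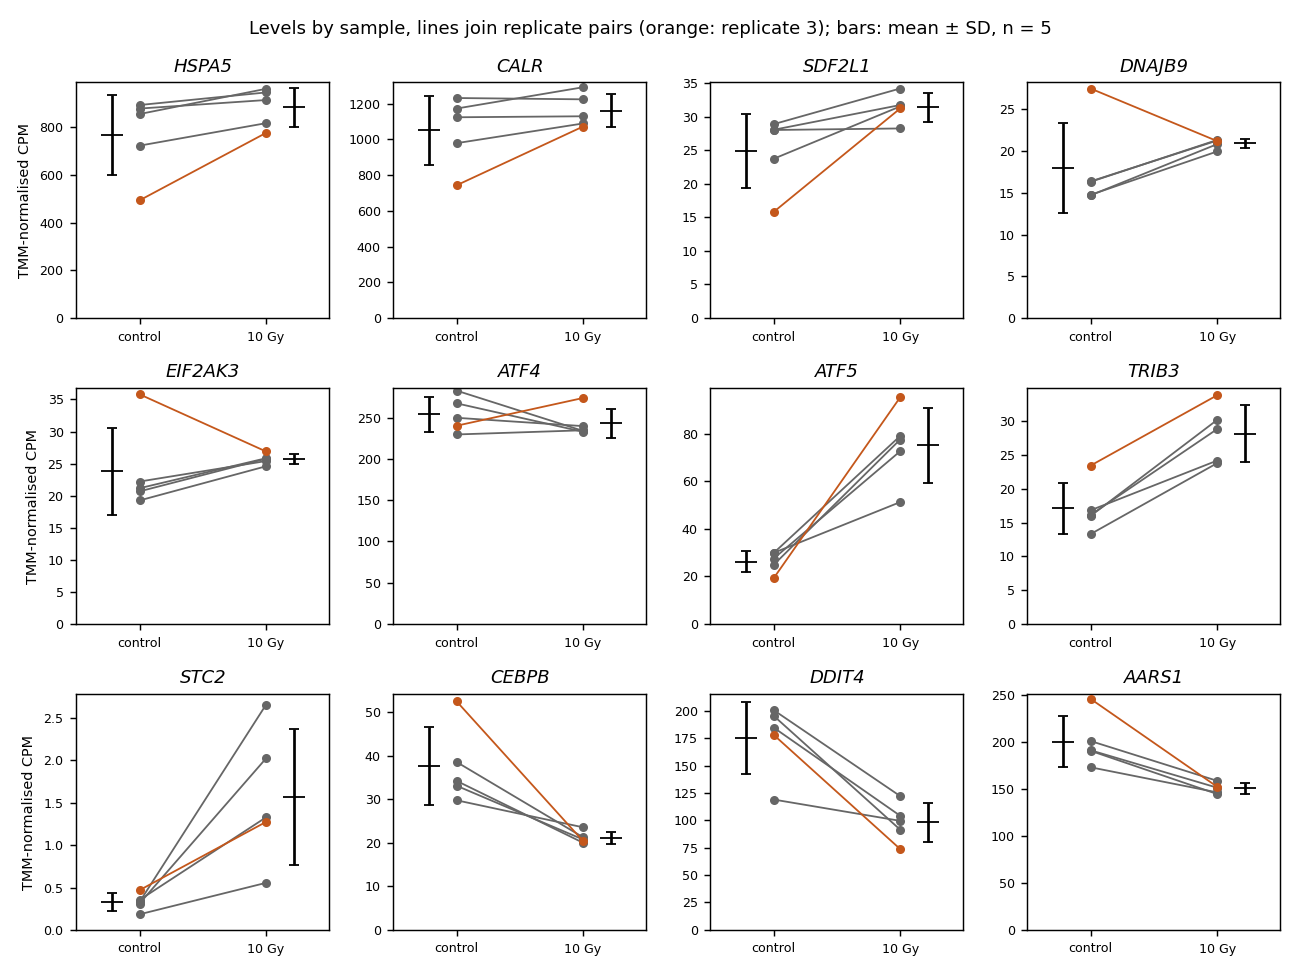
TMM-normalised CPM (vertical axes, from 0) of 12 genes in each of the 5 control and 5 irradiated samples, with lines joining replicate pairs, replicate 3 in orange, and mean ± SD bars beside the points. Replicate 3 runs against the other pairs for DNAJB9 and EIF2AK3, is steepest for HSPA5, CALR and SDF2L1, and runs with them for ATF5, TRIB3, STC2, CEBPB, DDIT4 and AARS1.

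The transcription factors and regulators of the integrated stress response moved apart from each other, with 2 higher (28.6%), 2 lower (28.6%) and 3 not called of 7 tested, against 23.9% higher and 22.7% lower among all genes. ATF4, on chromosome 22 from 39519695 to 39522683, was measured at 283, 229, 240.1, 249.7 and 267 CPM in control and at 234, 235, 274, 239.6 and 233 CPM in irradiated samples. The groups overlapped, with a log2FC of -0.06 (SE 0.07, adjusted p = 0.498 in edgeR) and the irradiated sample higher in 2 of 5 pairs. ATF4 is controlled largely at translation, which these data do not measure. ATF5, a related factor that acts in the mitochondrial and integrated stress responses, showed the largest change of the group. It stood at 24.8, 29.9, 19.2, 29.8 and 27.5 CPM in control and at 77.5, 51.2, 95.3, 79.02 and 72.6 CPM in irradiated samples. Every irradiated sample was above every control, and ATF5 rose 2.84-fold (log2FC 1.51, SE 0.19, adjusted p = 0.000534 in edgeR). Its exons lie for 19.5% of their length under exons of the opposite strand, whose reads could not be told apart from those of ATF5 where counting was without strand.

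TRIB3, a pseudokinase induced by ATF4 and DDIT3 that restrains both ATF4 and AKT, was measured at 13.3, 16.8, 23.5, 16.2 and 16.0 CPM in control and at 23.8, 24.2, 33.9, 28.9 and 30.2 CPM in irradiated samples. The groups did not overlap, although control replicate 3 came close to the lowest irradiated samples, and the log2FC was 0.73 (SE 0.07, adjusted p = 0.000224 in edgeR). CEBPB, a transcription factor of the C/EBP family that pairs with ATF4, stood at 38.6, 29.8, 52.6, 33.1 and 34.3 CPM in control and at 21.3, 23.6, 20.4, 20.8 and 20.03 CPM in irradiated samples. It fell by 0.80 on the log2 scale with no overlap (SE 0.13, adjusted p = 0.00172 in edgeR), and by 0.66 without replicate 3. DDIT3 encodes CHOP, the factor tied to cell death under lasting ER stress. It was measured at only 5.99, 4.59, 6.23, 4.39 and 4.68 CPM in control and at 3.65, 4.75, 3.87, 3.55 and 3.67 CPM in irradiated samples. Irradiated replicate 2 lay within the controls, and the log2FC of -0.40 (SE 0.12, adjusted p = 0.0306 in edgeR) lost its call without replicate 1, 3, 4 or 5, with adjusted p-values from 0.0698 to 0.104. For DDIT3, 31.6% of the exon length lies under exons of the opposite strand.

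PPP1R15A encodes GADD34, the phosphatase subunit that reverses eIF2 phosphorylation. It stood at 37.7, 25.3, 50.3, 28.9 and 30.7 CPM in control and at 37.5, 34.4, 45.7, 40.5 and 36.6 CPM in irradiated samples. The groups overlapped, with a log2FC of 0.21 (adjusted p = 0.116 in edgeR), and PPP1R15A was called higher without replicate 3 (0.30, adjusted p = 0.0257). CEBPG, a dimer partner of ATF4, had a log2FC of 0.10 (adjusted p = 0.157). NUPR1, a small stress-induced chromatin protein, had 62 counts in all and was not tested. Of these, 32 lay in control replicate 3, 3 to 8 in each other control and 0 to 5 in each irradiated sample.

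Among the effectors of the integrated stress response, 2 of 9 were higher (22.2%, against 23.9% of all genes) and 3 lower (33.3%, against 22.7%). STC2, a secreted glycoprotein induced through PERK and ATF4, was the least abundant gene tested per kilobase of exon and had the largest change of all 39. It was measured at 0.183, 0.329, 0.469, 0.353 and 0.311 CPM in control and at 0.555, 2.66, 1.27, 1.33 and 2.02 CPM in irradiated samples. The groups did not overlap, the spread among irradiated samples was wide, and the rise was 4.57-fold (log2FC 2.19, SE 0.25, adjusted p = 0.000373 in edgeR), on 835 counts over all samples. DDIT4, which encodes the mTORC1 inhibitor REDD1 and also responds to hypoxia and glucocorticoids, stood at 201, 119, 178, 195 and 185 CPM in control and at 122, 99.5, 73.8, 91.5 and 104 CPM in irradiated samples. It fell in all 5 pairs, by 0.83 on the log2 scale (SE 0.13, adjusted p = 0.00168 in edgeR). Control replicate 2 lay below irradiated replicate 1, so the groups overlapped. The same control was the lowest of the 5 for all 11 hypoxia-induced genes tested, with a mean of 4.42 log2 CPM where the other controls lay between 4.86 and 5.19, and the part of this in the DDIT4 values was not tested.

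SLC3A2, the heavy chain shared by several amino acid exchangers, fell from 144 ± 18.6 to 118 ± 9.89 CPM (SD, n = 5 each), by 0.28 on the log2 scale (SE 0.06, adjusted p = 0.00546 in edgeR), in all 5 pairs. The tRNA synthetases among the members went different ways. AARS1, which charges alanine tRNA, stood at 191, 201, 246, 173 and 192 CPM in control and at 145, 159, 153, 147 and 152 CPM in irradiated samples, and it fell by 0.40 (SE 0.07, adjusted p = 0.00206 in edgeR) with no overlap. WARS1, which charges tryptophan tRNA and is also induced by interferon, was measured at 85.3, 97.6, 110.4, 95.5 and 98.4 CPM in control and at 115, 123, 145, 127 and 121 CPM in irradiated samples. It rose with no overlap, by a log2FC of 0.38 (SE 0.04, adjusted p = 0.000246 in edgeR). SARS1, for serine tRNA, did not pass the test (-0.08, adjusted p = 0.204), and neither did ASNS, the asparagine synthetase (-0.14, adjusted p = 0.424), the lipoprotein receptor gene VLDLR (-0.13, adjusted p = 0.129) or CHAC1, which degrades glutathione (0.04, adjusted p = 0.803). ASNS stood at 1.75 ± 0.294 CPM in control and 1.61 ± 0.375 CPM in irradiated samples, the second lowest level per kilobase of the members tested. Of the 4 genes with the amino acid response element shown above, AARS1 and HERPUD1 fell and ASNS and CHAC1 gave no call.

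Per kilobase of exon, the order of control levels ran from CALR (375 CPM per kb) through HSPA5 (118), ATF4 (97.1), PDIA4 (92.6) and DDIT4 (82.9) down to EIF2AK3 (1.15), ERN1 (0.870), ASNS (0.358) and STC2 (0.0650). The spread of HSPA5 over control samples covered the gap to ATF4 and PDIA4, so the order of these neighbours is within error. Exon length was that of all annotated exons of a gene joined, which can be longer than its mRNA. The order therefore also depends on the annotation. In irradiated samples DDIT4 stood at 46.4 CPM per kb.

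ER chaperones and ATF4 targets were then set side by side. The targets were the regulators and effectors without ATF4 itself, 16 genes of which 15 were tested. The median log2FC was 0.13 for the chaperones and -0.08 for the ATF4 targets, a difference of 0.21. Of the chaperones 4 were higher and 0 lower, and of the ATF4 targets 4 were higher and 5 lower, so that 26.7% of the former and 60.0% of the latter changed, against 46.6% of all genes. No test over these lists was made, since they were chosen with results of these data known. The median of the ATF4 targets hides a wide range, from -0.83 for DDIT4 to 2.19 for STC2, and the mean of their log2 CPM moved up in 4 of 5 pairs while the median change was below 0. In pairs 1 to 5 the mean log2 CPM of the chaperones differed by 0.20, 0.02, 0.27, 0.14 and 0.05, and that of the ATF4 targets by 0.09, 0.25, -0.05, 0.20 and 0.16. Averaged over the pairs, these differences were 0.14 and 0.13, so the difference between the medians did not appear in the means. The largest chaperone difference and the only negative ATF4 target difference were those of pair 3.

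**Figure D3:**
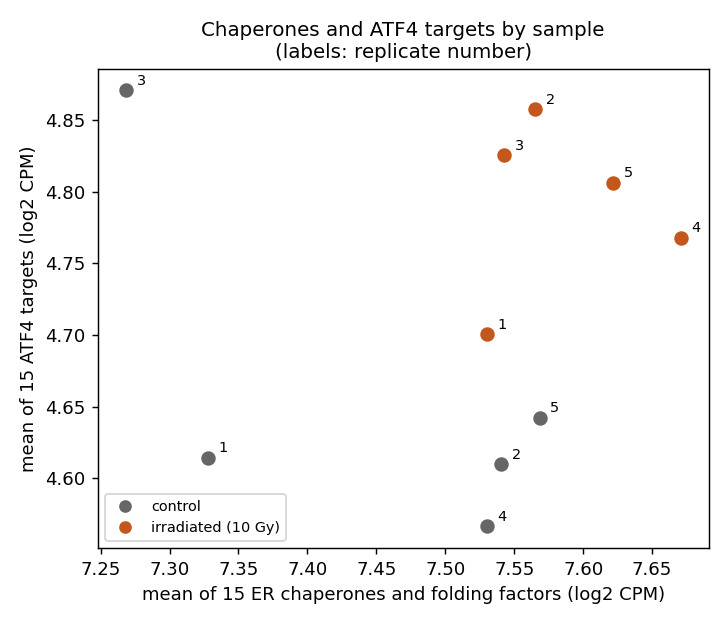
Mean log2 CPM of the 15 ER chaperones and folding factors (horizontal axis) and of the 15 ATF4 targets tested (vertical axis) in each sample, numbered by replicate, control in grey and irradiated in orange. Control replicate 3 lies alone at the upper left, at 7.27 for chaperones and 4.87 for ATF4 targets, and the other controls lie between 4.57 and 4.64 for ATF4 targets, below all irradiated samples.

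The mean log2 CPM of the chaperones minus that of the ATF4 targets was 2.71, 2.93, 2.40, 2.96 and 2.93 in control and 2.83, 2.71, 2.72, 2.90 and 2.82 in irradiated samples. Control replicate 3 was the lowest of the 10. The group values were 2.79 ± 0.24 and 2.79 ± 0.08 (SD, n = 5 each), and the control value was 2.88 ± 0.11 (SD, n = 4) without that sample. Without replicate 3 in the fit, the difference between the 2 medians of log2 fold changes was 0.12 in place of 0.21. The 15 chaperones held 0.503%, 0.584%, 0.425%, 0.588% and 0.599% of all counts in control replicates 1 to 5 and between 0.496% and 0.590% in irradiated samples.

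Control replicate 3 differed from the other controls by -0.22 in the mean log2 CPM of the chaperones and by -0.07 in that of the degradation genes. For the sensors and transcription factors of the unfolded protein response it differed by 0.37, and for the ATF4 targets by 0.26. It was the lowest control for 10 of 15 chaperones and the highest for 1, DNAJB9, whereas over all genes it was the lowest for 29.9% and the highest for 30.7%. Against the mean of the other controls it stood at -0.78 on the log2 scale for SDF2L1, -0.76 for HSPA5, -0.60 for CALR and -0.41 for PDIA4. For all 5 sensors and transcription factors of the unfolded protein response it was the highest control, by 0.78 for EIF2AK3, 0.37 for ERN1 and 0.26 for XBP1. Among the 15 ATF4 targets it was the highest for 10 and the lowest for 1, ATF5 (-0.54). The largest excesses there were those of PPP1R15A (0.73), STC2 (0.67), CEBPB (0.64) and TRIB3 (0.60), while ATF4 itself stood at -0.10. The 34 other genes of ER folding, translocation and degradation went against the chaperones, since control replicate 3 was the highest control for 20 of them and the lowest for 2, and their mean log2 CPM lay 0.14 above that of the other controls.

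**Figure D4:**
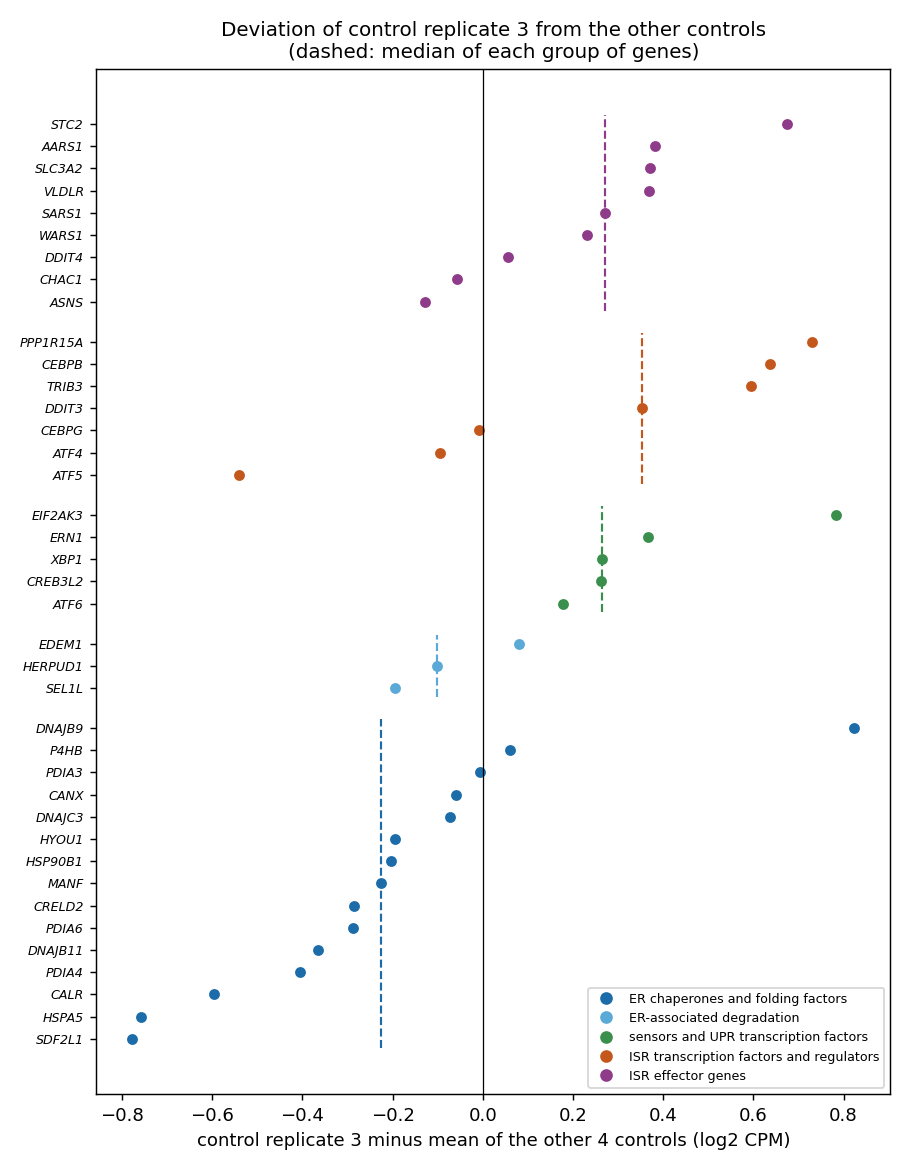
Log2 CPM of control replicate 3 minus the mean of the other 4 controls (horizontal axis) for each of the 39 genes tested, by role, with a dashed line at the median of each role. The chaperones lie mostly left of 0, with DNAJB9 at 0.82 the exception on the far right, and the 5 sensors and transcription factors all lie right of 0.

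Other features of control replicate 3 were measured beside this. Its total count ranked 3 of 5, and mitochondrial genes held 10.7% of its counts against 7.78% to 8.61% in the other controls. This share also differed between the groups, lying above that of the control in each of the 5 pairs, between 8.999% and 12.2% in irradiated samples, with irradiated replicate 3 the highest. The mean of 20 cell cycle genes was 4.17 log2 CPM in this sample and 4.21 in control replicate 1, against 5.48, 5.58 and 5.49 in control replicates 2, 4 and 5. The chaperone mean was also lower in control replicate 1 (7.33) than in replicates 2, 4 and 5 (7.53 to 7.57), but its ATF4 target mean (4.61) was not raised. The mean of 12 cytosolic heat shock genes in control replicate 3 was 0.22 below the other controls, with HSP90AA1 0.86 and HSPA8 0.71 lower, and it was the lowest control for 7 of the 12 and the highest for 4. The mean of 20 p53 targets was 5.30 log2 CPM in this sample, against 5.02 to 5.06 in the other controls and 6.23 to 6.45 in irradiated samples, and it was the highest control for 10 of the 20 and the lowest for 3. The part of these features in the values of the stress genes was not tested.

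With control replicate 3 left out and no replicate block, 18 of 39 members were called, 12 higher and 6 lower, in place of 17. Of all 18659 genes tested in that fit, 39.7% were called (4020 higher and 3381 lower), in place of 46.6%. DNAJB9 (log2FC 0.44), EIF2AK3 (0.31), ERN1 (0.24) and PPP1R15A (0.36) became called higher in that fit, at adjusted p-values (edgeR) between 0.000203 and 0.0348, and PDIA4, DNAJC3 and DDIT3 were no longer called. Dropping the block alone already removed the calls of PDIA4 (adjusted p = 0.113) and DNAJC3 (adjusted p = 0.11), while DDIT3 kept its call there (adjusted p = 0.029). The calls of ATF5, STC2, TRIB3, WARS1, SEL1L and EDEM1 as higher and of HERPUD1, CREB3L2, CEBPB, DDIT4, AARS1 and SLC3A2 as lower were kept there and under all other alternatives.

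The wider pathways were described with lists of other genes. Of 34 other genes of ER folding, translocation and degradation, 13 were higher (38.2%, against 23.9% of all genes) and 4 lower (11.8%, against 22.7%), with a median log2FC of 0.06. Among those called with 1 direction in all 5 pairs, the largest changes were those of ERO1A, the oxidase that recharges disulphide isomerases, from 61.2 ± 9.24 to 102 ± 14.9 CPM (SD, n = 5 each; log2FC 0.73), of SSR3, a subunit of the translocon-associated complex (0.68), and of SPCS3, a subunit of the signal peptidase (0.50), with edgeR adjusted p-values from 0.000212 to 0.00103. DERL3, a degradation factor named here after its value was seen, had a log2FC of -0.72 on 641 counts and was not called (adjusted p = 0.0922). ERO1A also responds to hypoxia. Of 11 hypoxia-induced genes tested 2 were higher (18.2%, against 23.9% of all genes) and 4 lower (36.4%, against 22.7%). Among those called were VEGFA (-1.17), EGLN3 (0.79) and ANGPTL4 (2.08). Of 15 other regulators of the unfolded protein response and eIF2, 4 were higher (26.7%) and 1 lower (6.67%). The shares of all genes were 23.9% and 22.7%. EIF2AK4, which encodes GCN2, the eIF2 kinase that senses uncharged tRNA, rose from 87.9 ± 6.35 to 127 ± 10.7 CPM (SD, n = 5 each; log2FC 0.53, adjusted p = 0.000248 in edgeR). CREB3 (0.29) and EIF2S1, the phosphorylated eIF2 subunit (0.26), were also higher, and PPP1R15B, the constitutive partner of PPP1R15A, was not called (-0.02).

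Of 23 other ATF4 targets tested, 12 were lower (52.2%) and 4 higher (17.4%), with a median log2FC of -0.32, against 22.7% lower and 23.9% higher among all genes. CBS, which makes cystathionine from homocysteine, stood at 1.82 ± 0.661 CPM in control and 0.741 ± 0.299 CPM in irradiated samples (SD, n = 5 each; log2FC -1.31, adjusted p = 0.000295 in edgeR), CEBPD, a transcription factor of the C/EBP family, fell by 0.90 and the glycine transporter gene SLC6A9 by 0.80. Each fell in all 5 pairs. ATF3, a stress-induced factor downstream of ATF4, was measured at 1.25, 1.03, 3.81, 0.854 and 0.974 CPM in control and at 2.07, 2.49, 2.6996, 3.09 and 2.52 CPM in irradiated samples. It was called higher (log2FC 0.93, adjusted p = 0.043 in edgeR), with control replicate 3 above every irradiated sample. In that sample the mean of the 23 genes was 0.36 above the other controls.

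**Figure D5:**
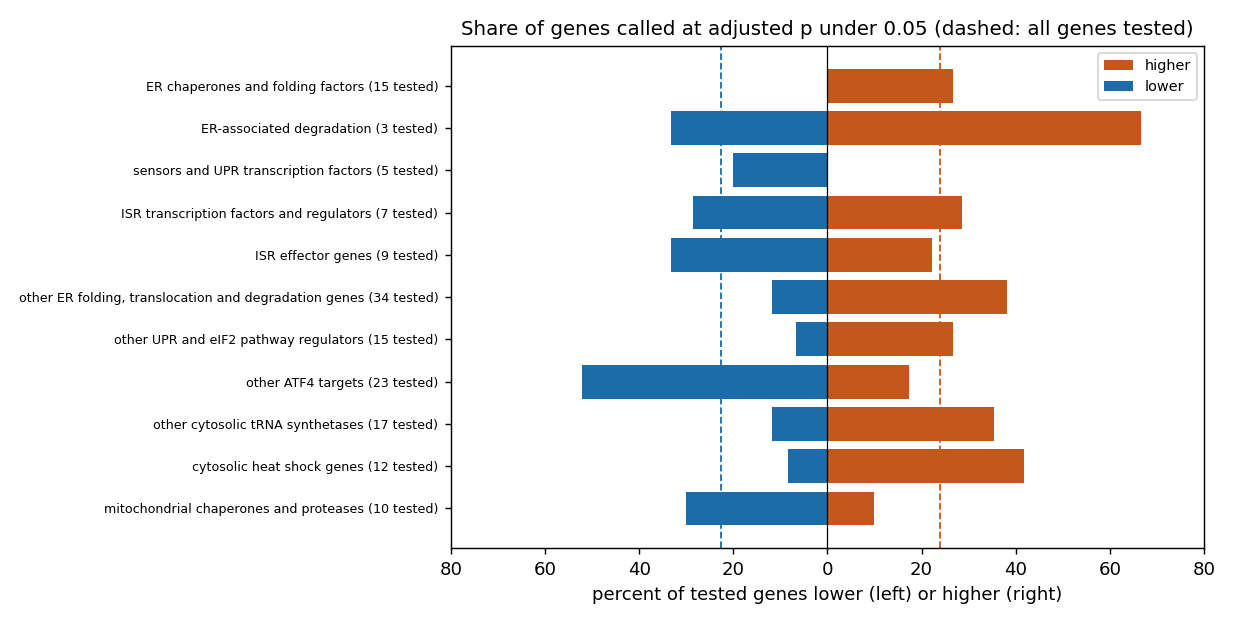
Share of tested genes called higher (right, orange) or lower (left, blue) in edgeR at an adjusted p under 0.05, in percent, for 5 groups of members and 6 lists of related genes. Dashed lines mark the shares among all genes, 23.9% higher and 22.7% lower. The bar of other ATF4 targets reaches 52.2% on the lower side and that of other ER genes 38.2% on the higher side.

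Among 17 other cytosolic tRNA synthetases 6 were higher and 2 lower, so that 47.1% changed against 46.6% of all genes, with TARS1 (0.31), HARS1 (0.29) and YARS1 (-0.29) the largest changes. Of 12 cytosolic heat shock genes 5 were higher (41.7%, against 23.9% of all genes) and 1 lower (8.33%, against 22.7%), HSP90AA1 (0.40) and DNAJA1 (0.27) among the former and HSPB1 (-0.37) the latter. Of 10 mitochondrial chaperones and proteases, whose response ATF5 can serve, 1 was higher (GRPEL1, 0.25) and 3 were lower. These were 10.0% and 30.0% of the list, against 23.9% and 22.7% of all genes. LONP1 (-0.25) and CLPP (-0.20) were lower in all 5 pairs. Lists of 20 genes each were already covered by earlier results of these data. Of the cell cycle genes 0 were higher and 18 lower (90.0%, against 22.7% of all genes). Of the p53 targets 18 were higher (90.0%, against 23.9% of all genes) and 0 lower.

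Markers of the cell type were checked in the same fit. KRT8 was the most abundant epithelial marker, at 1009.9 ± 134 CPM in control and 1088 ± 180.2 CPM in irradiated samples (SD, n = 5 each), and PAX8, EPCAM and ANPEP were also abundant. Several defining genes of the proximal tubule in the kidney were nearly absent, with 17 counts for LRP2, 12 for HNF4A, 86 for SLC34A1 and 1 for SLC22A6 over all samples, and SLC12A1, a marker of the thick ascending limb, stood at 178 ± 125 CPM in control and fell by 1.80 on the log2 scale. CDH6 rose from 37.7 ± 9.28 to 246 ± 59.7 CPM. Among the 10 proximal tubule and epithelial markers tested, 2 were higher, 1 was lower (log2FC -0.61) and 7 were not called. The share of all genes that were lower was 22.7%. Markers of other cells were low. COL1A1, the most abundant of 6 fibroblast markers, stood at 18.8 ± 3.34 CPM in control and 32.2 ± 4.67 CPM in irradiated samples, and DCN rose from 0.315 ± 0.195 to 1.75 ± 1.59 CPM (log2FC 2.36, adjusted p = 0.000201 in edgeR), so that both fibroblast markers tested were higher, with COL1A2, COL3A1 and LUM at 23, 4 and 2 counts in all. CDH5, the most abundant of 5 endothelial markers over all samples, stood at 0.596 and 3.31 CPM in the groups, and 2 of the 3 tested were higher. CD14, the most abundant of 5 leukocyte markers, stood at 0.268 and 0.570 CPM, and 1 of the 2 tested was higher. Of all genes, 23.9% were higher. The part of such cells in the stress gene values was not tested. UMOD had 0 counts.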

How the data were processed

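Gene counts from polyA RNA-seq of 5 irradiated and 5 mock-irradiated samples were used. The authors trimmed adapters, aligned reads to GRCh38 with STAR, which also counted them on GENCODE genes, and deposited raw counts per gene without normalisation. The annotation release and the strand column of the counts are not given in the sources used here. The test was that of edgeR 4.0.16 in R 4.3.3 (TMM, glmQLFit, glmQLFTest, Benjamini-Hochberg adjustment over all 19006 genes with at least 200 counts, threshold 0.05), with replicate number as a block, as in the study's model. The standard error of a change was taken as its size over the root of the quasi-likelihood F statistic. Same-numbered samples deviated together from their group means (correlation 0.51, 0.22, 0.34, 0.39 and 0.35 for numbers 1 to 5, against a median of -0.13, a lowest of -0.35 and a highest of 0.32 between different numbers, the last above that of number 2), so the numbers were taken to pair the samples. No replicates agreed within sampling noise (lowest chi-square per gene 7.68).

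Log2 CPM used a prior count of 2. Of 243 list genes, 242 matched 1 identifier each. Members, lists and tests were chosen with earlier results of these data known. All members may be named, and from other lists at most the 3 largest changes that passed the threshold in the same direction in all 5 pairs, beside ATF3, PPP1R15B and, for markers, the most abundant and the nearly absent genes. VEGFA, EGLN3 and ANGPTL4 fall under that rule, and HSPA8, PAX8, EPCAM, ANPEP, DERL3, CDH6 and SLC12A1 were named after their values were seen. Alternatives were DESeq2 1.42.0, limma-voom (limma 3.58.1), 2 other scalings, 2 other filters, no replicate block and each replicate left out. Leaving out control replicate 3 alone was added after seeing the data. The fit was tested on simulated data. Coordinates, exon lengths (all annotated exons of a gene joined) and exon overlaps came from GENCODE release 44 and promoters from RefSeq. Figures were drawn with matplotlib 3.10.9.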

Additional observations from a re-analysis of the deposited data

Results flagged for a closer look

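A sample was singled out where its gap to the nearest other sample of its group, relative to the range of the group, passed Dixon's 95% value for 5 samples. Of 78 groups of CPM values 7 met this, where chance gives 3.9, and 4 of the 7 met it on the log2 scale as well. Of 10 groups of mean log2 CPM by role 0 met it. Control replicate 3 accounts for 4 of the 7. It was high for DNAJB9 at 27.5 CPM (others 14.7 to 16.4), for EIF2AK3 at 35.8 (others 19.3 to 22.2), for SLC3A2 at 175.8 (others 130.02 to 142) and for SARS1 at 173 (others 138 to 148). Control replicate 2 was low for DDIT4, at 119 CPM against 178 to 201. Irradiated replicate 3 was high for ATF4, at 274 CPM against 233 to 239.6, and irradiated replicate 2 was high for DDIT3, at 4.75 CPM against 3.55 to 3.87. On the log2 scale DNAJB9, EIF2AK3, DDIT4 and ATF4 also met the limit, and SLC3A2, SARS1 and DDIT3 did not. Why these samples differ was not tested.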

How the results depend on the processing

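Across 13 alternatives, 12 of the 17 called members kept their direction and their call, and of 507 member results 453 stayed on the same side of the threshold in the same direction, 31 lost the call, 17 gained one and 6 changed sign. The sign changes all concern genes without a call, namely CANX (-0.0075), ATF6 (-0.0059), XBP1 (-0.035) and CHAC1 (-0.035) with library size as the only scaling and CHAC1 with a replicate left out (-0.050 to 0.13). The cause was not tested. Library size alone gave 6 members higher and 11 lower, in place of 10 and 7. Over all 19006 genes it gave 3609 higher and 5894 lower, in place of 4550 and 4307. Leaving out each replicate gave 6 to 14 members higher, 6 to 7 lower and 12 to 20 changed, and 6529 to 8652 of all genes. Without the replicate block, 7006 genes in place of 8857 were called, 13 members in place of 17 and 6 members higher in place of 10, the 4 lost being the chaperones PDIA4, P4HB, DNAJC3 and SDF2L1. The number of chaperones called was the least stable count, with 0 without replicate 1 or 4, 7 without replicate 2, 5 without replicate 3 or by DESeq2, and 1 by upper-quartile scaling. Of all genes, 38.4% were called without replicate 1, 35.7% without replicate 4, 46.2% without replicate 2 and 47.2% without replicate 3. The share was 43.9% by DESeq2 and 47.8% by upper-quartile scaling. The difference between the chaperone and ATF4 target medians lay between 0.09 and 0.28, lowest without control replicate 3. The members tested on the fewest counts over all samples were STC2 (835), ASNS (1676), DDIT3 (4475) and CHAC1 (4969), and NUPR1 could not be tested.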
